A study of Vitis vinifera and Vitis quinquangularis with 24 samples.

Results

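The stilbene synthase array of grapevine chromosome 16 held 37 of the 27711 gene models in the deposited tables, namely every model numbered from VIT_16s0100g00700 to VIT_16s0100g01200. Models are named below by the last part of that number (g00700, g01200 and so on). The sources used here name no genome build. By the coordinates in the files, the array ran over 539.0 kb of chromosome 16, from position 16172918 to position 16711898, with 8 models on the plus strand and 29 on the minus strand. Neither the files nor the RefSeq gene table at hand paired any of these numbers with a gene name, so "stilbene synthase" is the name of the array, and no single model is given an enzyme or isoform name.

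Stilbene synthases join p-coumaroyl-CoA with malonyl-CoA to make resveratrol, the phytoalexin of grape, and they draw on the same substrates as chalcone synthase, the entry enzyme of flavonoid and anthocyanin synthesis. In grapevine the family is large and lies mostly in tandem arrays, in which neighbouring copies are very alike in sequence. Its genes are known to respond to fungal infection, UV light and wounding, and to be expressed in the berry skin during ripening.

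Berry skin RNA was sequenced from 2 grapes, Danfeng-2, an accession of the Chinese wild species Vitis quinquangularis, and Cabernet Sauvignon, a red wine cultivar of Vitis vinifera, in a series named for resveratrol accumulation. Each was sampled at 4 stages of the E-L scale of berry development, E-L 33 (hard green berries), E-L 34 (softening begins), E-L 35 (colouring begins) and E-L 38 (ripe for harvest), called the green, softening, colouring and harvest stages below, with 3 libraries for each of the 8 groups of grape and stage and 24 libraries in all. No treatment, transgene or selected genotype is named for any group beyond the grape itself. The labels do not tie libraries to plants, pools or vines, so that p-values measure the spread between those libraries and nothing wider.

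Total counts lay between 13201295 and 23095568 per library. In 3 libraries, Danfeng-2 green replicate 1, Danfeng-2 colouring replicate 1 and Cabernet Sauvignon softening replicate 3, log2 levels over all tested models correlated at 0.937 to 0.967 with the other libraries of their own group, against 0.990 to 0.994 for the 18 remaining pairs within a group. They were kept in the fit, and results that rest on them are also given without them. The annotation itself limits single models: 26 of the 37 overlapped another member on the map, 12 overlapped one on the opposite strand, and 5 were drawn across more than 30 kb (g00780, g00810, g00900, g00930 and g01070). No source used here says whether the counting used the strand, and neighbouring copies in such arrays are very alike, so the division of reads between neighbours is uncertain. How alike these models are in sequence was not measured. The sum over the array does not depend on how reads were divided within it. It would change if shared reads were dropped or counted more than once, and no source used here says how they were treated. On the map, 11 models, among them g00750, g00770, g01190 and g01200, overlapped no other member, but near-identical copies can share reads without overlapping. No read was counted for 4 models (g00870, g00970, g01060 and g01080), and 33 had reads. Of these, 32 passed the filter on low counts and were tested; g00760, with 72 reads over all libraries, did not pass.

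Summed over the array, CPM (counts per 1000000 of a library size adjusted by the TMM method) placed the array's highest level at colouring in both grapes and its lowest at a different stage in each. In Danfeng-2 the sum was 69.1, 85.8 and 85.7 CPM at the green stage, 566, 578 and 577 CPM at softening, 606, 1923 and 1921 CPM at colouring, and 512, 512 and 498 CPM at harvest. In Cabernet Sauvignon it was 135.2, 137.0 and 135.9 CPM at the green stage, 48.5, 48.8 and 75.5 CPM at softening, 2676, 2636 and 2711 CPM at colouring, and 1033, 1066 and 1273 CPM at harvest. The libraries of the 2 grapes did not overlap at any stage: every Danfeng-2 library lay below every Cabernet Sauvignon library at the green, colouring and harvest stages, and above every one of them at softening. The 3 libraries that stood apart each also held an unusual sum for their group, low at Danfeng-2 green and colouring and high at Cabernet Sauvignon softening.

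**Figure D1:**
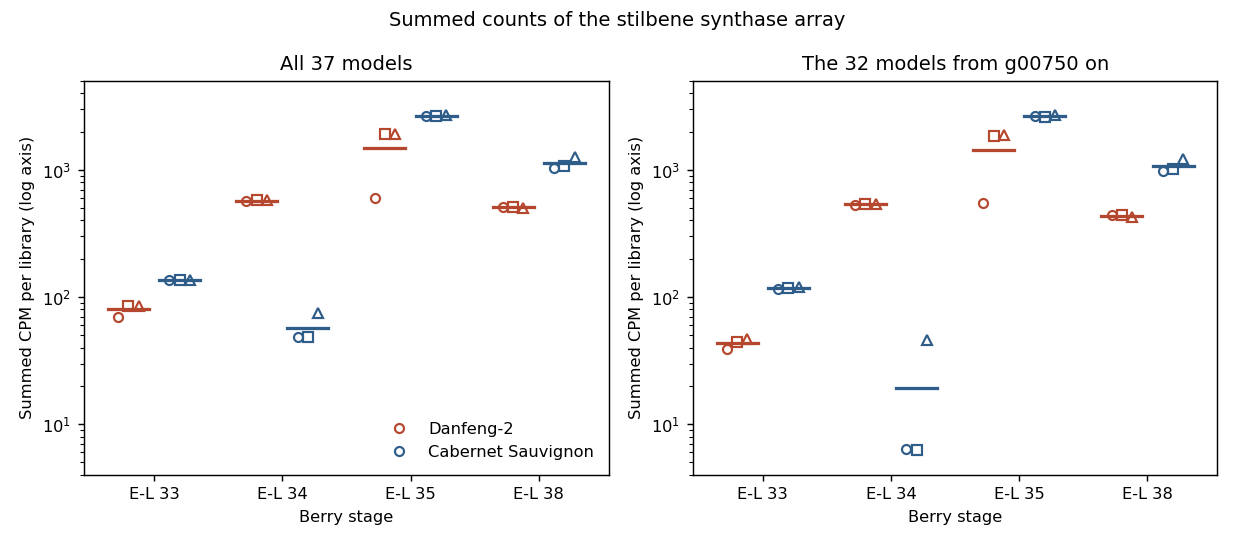
Summed CPM of the array in each library (log axis) by berry stage, Danfeng-2 in red to the left and Cabernet Sauvignon in blue to the right at each stage; circles, squares and triangles are replicates 1, 2 and 3, and bars are means of 3 libraries. The left panel sums all 37 models and the right panel the 32 from g00750 on; Cabernet Sauvignon spans 48.5 to 75.5 CPM at E-L 34, below all 3 Danfeng-2 libraries, and 2636 to 2711 CPM at E-L 35, above them.

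As a ratio of group means, the sum averaged 80.2 ± 9.57 CPM in Danfeng-2, against 136.01 ± 0.880 CPM in Cabernet Sauvignon at the green stage (SD, n = 3 each here and below), a log2 ratio of -0.76. It averaged 574.0 ± 6.57 CPM in Danfeng-2, against 57.6 ± 15.5 CPM in Cabernet Sauvignon at softening, a log2 ratio of 3.32. At colouring the means were 1483 ± 760 CPM in Danfeng-2, against 2674 ± 37.4 CPM in Cabernet Sauvignon, a log2 ratio of -0.85 that became -0.48 without Danfeng-2 colouring replicate 1. At harvest they were 507 ± 7.94 CPM in Danfeng-2, against 1124 ± 130.2 CPM in Cabernet Sauvignon, a log2 ratio of -1.15. These sums are descriptions and carry no test. In bulk skin, fewer cells that express the array and less RNA per cell cannot be told apart. Danfeng-2 belongs to another species than the one whose model numbers the files use, and how many of its reads failed to align to these copies was not tested.

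Between the grapes, nearly every tested member from g00750 on was higher in Danfeng-2 at softening, and 16 to 18 of the 32 tested members were lower in Danfeng-2 at each of the other stages. A model was called when edgeR's quasi-likelihood test, fitted to all 18375 tested models with Benjamini-Hochberg adjustment, gave an adjusted p below 0.05 and the change was at least 2-fold. At softening, 26 of the 32 tested members were called higher in Danfeng-2 and 0 lower, against 12.8% of all tested models called higher and 14.6% called lower. Those not called were g00700 to g00740 and g01130. The members' median log2 fold change there was 3.84, against -0.01 over all models. At the green stage, 3 members were called higher and 16 lower (background 13.5% higher and 14.6% lower), with a median of -1.23 against 0.06. At colouring, 2 were called higher and 18 lower (background 17.7% higher and 16.7% lower), with a median of -1.12 against 0.02. At harvest, 2 were called higher and 18 lower (background 15.3% higher and 16.3% lower), with a median of -1.18 against -0.03. The shares called higher at the green, colouring and harvest stages were below the background, whereas the shares called lower at those stages and higher at softening were above it.

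**Figure D2:**
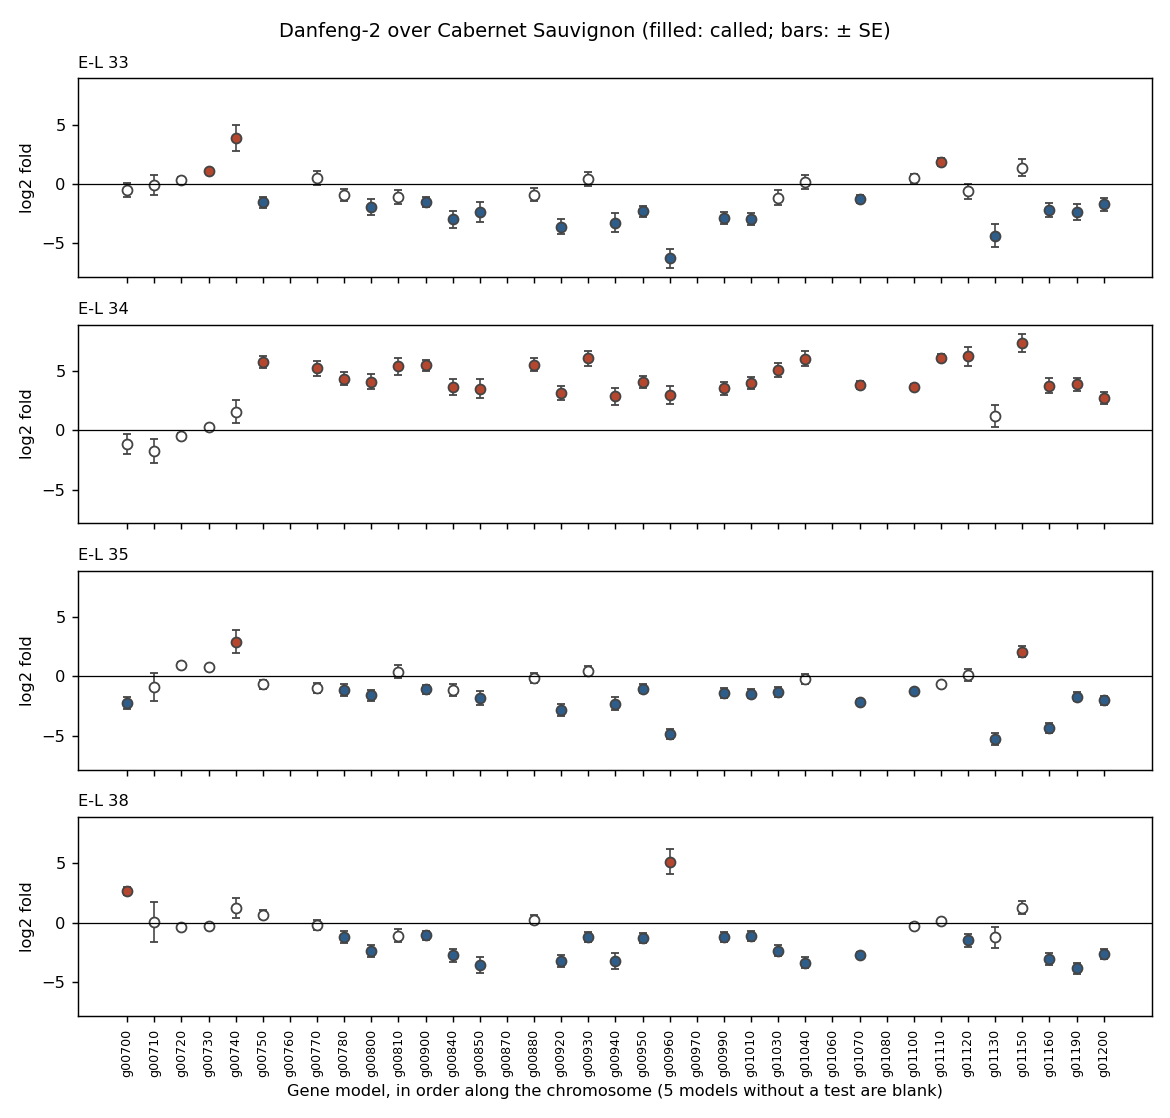
Log2 fold change of Danfeng-2 over Cabernet Sauvignon for each tested model in chromosome order, 1 panel per stage; filled points are called (red higher and blue lower in Danfeng-2), open points are not, and bars are ± 1 SE. From g00750 on, 26 of 27 points are filled red at E-L 34, and most are below 0 at the other stages; the values of g00960 at E-L 33 and E-L 38 rest on a group with 0 counts and are no estimate of size.

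Part of the members changed side between stages. Of the 32 tested members, 15 were called higher in Danfeng-2 at softening and lower at the green stage (0.909% of all tested models), 14 were called higher at softening and lower at both the colouring and harvest stages (0.354% of all), and 12 were called higher at softening and lower at all 3 other stages (0.19% of all; g00800, g00850, g00900, g00920, g00940, g00950, g00990, g01010, g01070, g01160, g01190 and g01200). Without the 3 libraries that stood apart these counts were 17 (1.67% of all tested models), 9 (0.393%) and 9 (0.205%). Among those 12, g01190 and g01200 lie clear of every other member. Model g01190 had 7.72, 7.10 and 7.36 CPM in Danfeng-2, against 0.0438, 0.141 and 1.30 CPM in Cabernet Sauvignon at softening. At harvest it had 3.19, 3.01 and 2.88 CPM in Danfeng-2, against 36.2, 40.3 and 52.2 CPM in Cabernet Sauvignon. Neither pair of groups overlapped, and the order of the grapes was opposite at the 2 stages: the log2 fold change was 3.88 at softening (adjusted p = 8.1e-06, edgeR; 6.21 without the 3 libraries) and -3.82 ± 0.47 at harvest (SE; adjusted p = 1.0e-06, edgeR). Of the 32 tested members, the libraries of both grapes did not overlap, with Danfeng-2 higher, for 27 at softening (32.3% of all tested models), 4 at the green stage (32.1%), 3 at colouring (32.1%) and 6 at harvest (36.9%). They did not overlap, with Danfeng-2 lower, for 1 at softening (31.5%), 21 at the green stage (30.7%), 22 at colouring (34.5%) and 22 at harvest (40.2%).

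Leaving out the 3 libraries that stood apart gave 28 members called higher and 1 lower at softening, 4 and 18 at the green stage, 3 and 13 at colouring, and 4 and 19 at harvest. The background in that refit was 15.5% higher and 15.7% lower at softening, and 15% and 18.9% at the green stage. It was 18.3% and 18.1% at colouring, and 16.3% and 17.2% at harvest. The members' median log2 fold change at softening was then 6.35. In the 2 Cabernet Sauvignon softening libraries left, 6 of the 32 tested members had no read, so that folds against them are larger and loosely fixed. The member called lower at softening was g00710, which averaged 0.169 CPM in Danfeng-2, against 0.536 CPM in Cabernet Sauvignon without replicate 3. With all libraries edgeR called none lower there, DESeq2 and limma also called none, and g00720 alone was lower with an unadjusted p under 0.05. At colouring the members that lost their call included g00780, g00900 and g00950, 3 of the most abundant.

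In Danfeng-2, the array was at its lowest at the green stage, and most of its members rose at softening. From the green to the softening stage, 26 of the 32 tested members rose and 0 fell, against a background of 3.39% and 6.92% (median log2 fold change 3.33). From the softening to the colouring stage, 12 rose and 0 fell, against 4.85% and 4.27% (median 1.26). Without Danfeng-2 colouring replicate 1, 24 rose. Without all 3 libraries that stood apart, 24 rose as well, against a background of 6.38% higher and 7.01% lower. From the colouring to the harvest stage, 1 rose and 21 fell, against 9.92% and 14.4% (median -1.69). In the first 2 steps with all libraries, no member was lower with an unadjusted p under 0.05, and DESeq2 and limma called none lower. Without the 3 libraries, 26 rose and 2 fell (g00700 and g00740) from the green to the softening stage, against 5.14% and 7.06%. From the colouring to the harvest stage, 2 then rose and 24 fell, against 12.2% and 16.5%. Of the 33 members with reads, 28 had their highest group mean at colouring and 29 their lowest at the green stage.

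For single members in Danfeng-2, g01190 averaged 7.39 ± 0.32 CPM at softening and 0.311 ± 0.12 CPM at the green stage, a log2 fold change of 4.53 ± 0.61 (SE; adjusted p = 2.8e-05, edgeR). Model g00880 lies inside the stretches drawn for g00780 on the other strand and for g00900 on its own strand. It had 18.99, 16.98 and 19.17 CPM at softening and 0.905, 1.008 and 1.004 CPM at the green stage, a log2 fold change of 4.23 ± 0.51 (adjusted p = 9.2e-06, edgeR). Into colouring the largest called rises among members with at least 5 CPM at that stage were those of g01200 (2.38 ± 0.41; adjusted p = 2.8e-04, edgeR) and g01120 (2.25 ± 0.53; adjusted p = 0.0036, edgeR). Without the 3 libraries that stood apart, the rise of g01200 was 2.12, below 2.75 for g01120 and 2.63 for g01150. Model g01120 was also the one that fell furthest after colouring. It had 7.25, 7.48 and 8.89 CPM at harvest and 17.6, 169 and 157 CPM at colouring, a log2 fold change of -3.86 ± 0.58 (adjusted p = 1.7e-05, edgeR). The colouring library near 17.6 CPM is the one that stood apart. Close behind, g01040 changed by -3.85 ± 0.51 (adjusted p = 3.4e-06, edgeR).

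In Cabernet Sauvignon, most members fell at softening, the step at which most rose in Danfeng-2, and most then rose at colouring. From the green to the softening stage, 1 of the 32 tested members rose and 24 fell, against a background of 7.42% and 11.6% (median log2 fold change -2.35). From the softening to the colouring stage, 28 rose and 0 fell, against 14.5% and 16.9% (median 6.71); g00720 alone was lower with an unadjusted p under 0.05, and DESeq2 and limma called none lower. From the colouring to the harvest stage, 1 rose and 16 fell, against 3.63% and 6.98% (median -1.24). Without replicate 3 of softening and the other 2 libraries that stood apart, these counts were 2 and 27, 29 and 1, and 2 and 18. The backgrounds were then 8.63% and 16.1%, 17.5% and 18.9%, and 4.71% and 8.84%. Again 28 of 33 members had their highest mean at colouring, but 26 had their lowest at softening.

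Among single members in Cabernet Sauvignon, g01010 had 0.263, 0.328 and 2.46 CPM at softening and 10.2, 9.33 and 11.3 CPM at the green stage, a log2 fold change of -3.32 ± 0.52 (adjusted p = 3.5e-05, edgeR), which was -5.07 without the 3 libraries. Its neighbour g00990 changed by -3.15 ± 0.51 (adjusted p = 6.2e-05, edgeR) and by -4.66 without them. The replicate 3 library held more of both than the other two at softening. Into colouring, g01110 had 75.3, 82.5 and 80.5 CPM at colouring and 0.175, 0.141 and 0.314 CPM at softening, a log2 fold change of 8.51 ± 0.32 (adjusted p = 8.6e-14, edgeR). Model g01120 followed, with 110, 94.9 and 112 CPM at colouring and 0, 0.0469 and 0.896 CPM at softening (8.35 ± 0.79; adjusted p = 2.8e-08, edgeR; 11.70 without the 3 libraries, which leaves 1 softening read). All 3 colouring libraries lay far above all 3 softening libraries for both models.

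**Figure D3:**
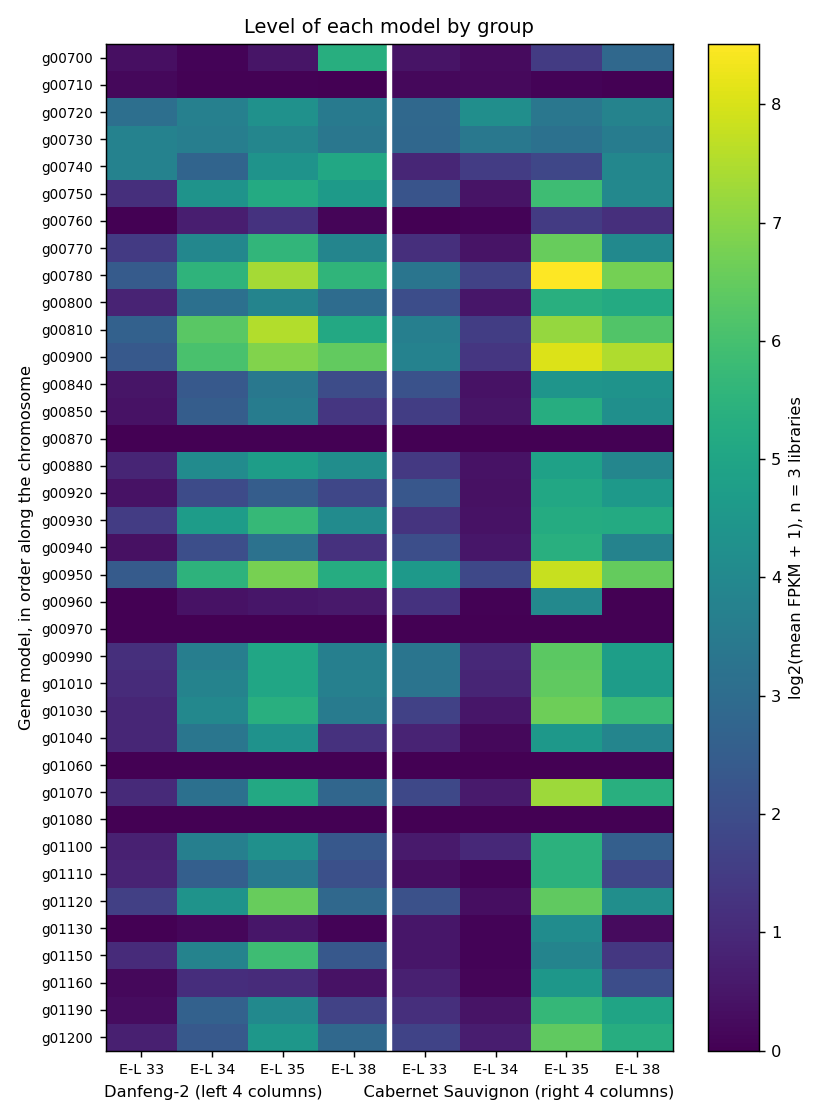
Mean level of each of the 37 models, as log2(FPKM + 1), in chromosome order down the page, with the 4 Danfeng-2 groups in the left columns and the 4 Cabernet Sauvignon groups in the right columns (3 libraries each). E-L 35 is the brightest column in both grapes and E-L 34 the darkest in Cabernet Sauvignon; the first 5 rows, g00700 to g00740, and the 4 rows with no reads depart from it.

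The difference between the grapes in each step was tested directly, as the change in Danfeng-2 minus the change in Cabernet Sauvignon. For the step from green to softening, it was called positive in 27 members and negative in 0, against a background of 8.39% and 9.15%; the median was 5.98, where all models had a median of -0.11. With all libraries, DESeq2 and limma also called none negative, and 2 members (g00720 and g00730) were negative with an unadjusted p under 0.05. Without the 3 libraries that stood apart, 27 members were called positive and 1 negative (g00730), against 14.1% and 11.1%. For the step from softening to colouring, it was called positive in 1 member and negative in 27, against 13.4% and 10.6% (median -5.53). Without the 3 libraries these counts were 1 and 28, against 15.6% and 15.4%. For the step from colouring to harvest, it was called positive in 4 members and negative in 5, against 12.5% and 12.6% (median -0.48). That count rests on a library that stood apart: without the 3 such libraries, 6 members were positive and 13 negative, against 15.8% and 15.7% of all models. Counted by single steps, 23 members both rose in Danfeng-2 and fell in Cabernet Sauvignon from the green to the softening stage (1.06% of all tested models), 12 rose in both grapes from the softening to the colouring stage (2.53% of all), and 14 fell in both from the colouring to the harvest stage (2.11% of all). Without the 3 libraries that stood apart these counts were 25 (1.97% of all tested models), 24 (3.13%) and 15 (2.66%). Groups at 0 counts touched these medians little: with such a member held at its limit (3 reads over the group), the median was 3.31 for Danfeng-2 from the green to the softening stage, 5.93 for the first difference between steps, and as above for the other comparisons.

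Among members with at least 5 CPM in the highest of the 4 groups compared, the largest called difference at the first step was that of g00750, which overlaps no other member. In Danfeng-2 it had 24.2, 22.5 and 25.7 CPM at softening and 1.33, 1.36 and 1.72 CPM at the green stage. In Cabernet Sauvignon it had 0.175, 0 and 1.12 CPM at softening and 4.58, 4.27 and 4.18 CPM at the green stage. The 2 grapes thus moved in opposite directions in every library, and the difference in log2 change was 7.32 ± 0.67 (adjusted p = 1.8e-07, edgeR). For g00900 the difference was 6.97 ± 0.62 (adjusted p = 1.5e-07, edgeR). Without the 3 libraries that stood apart, these differences were 9.42 for g00750, with 4 reads in the 2 Cabernet Sauvignon softening libraries left, and 8.21 for g00900. At the second step the largest negative differences were those of g01160 (-8.11 ± 0.70; adjusted p = 3.2e-08, edgeR) and g00960 (-7.77 ± 0.89). No p is given for g00960, which passed the filter on low counts mainly through Cabernet Sauvignon colouring. All Cabernet Sauvignon softening reads of g01160 and g00960 came from replicate 3, the library that stood apart. Of g00960 there was 1 read in all there, so its value is loosely fixed: from the softening to the colouring stage in Cabernet Sauvignon it was 449-fold higher, with a 95% counting interval of 80.1 to 17810. The single positive one was g00720 (1.46 ± 0.33; adjusted p = 0.0014, edgeR).

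Per length, as the authors' FPKM (fragments scaled to model length and library depth), the 6 most abundant members averaged over the 8 groups were g00780, g00900, g00950, g00810, g01070 and g01120. Of these, g00780, g00810, g00900 and g01070 are models drawn across more than 30 kb, which enclose other members, and g00950 is short (560 bases). At colouring, g00780 had 84.9, 203 and 201 FPKM in Danfeng-2, against 358, 363 and 369 FPKM in Cabernet Sauvignon. By mean FPKM it held rank 848 of 27711 models in Danfeng-2 and rank 341 in Cabernet Sauvignon. At Cabernet Sauvignon softening it held rank 13992, with 0.385, 0.564 and 5.77 FPKM. The 6 together made up 55.4% of the array's summed FPKM at colouring in each grape, and 16.7% at Cabernet Sauvignon softening, where the share was 8.73% without replicate 3.

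All 6 were called higher in Danfeng-2 at softening, with log2 fold changes between 3.80 ± 0.32 for g01070 (adjusted p = 9.8e-09, edgeR) and 6.21 ± 0.77 for g01120 (adjusted p = 1.6e-06, edgeR). Without the 3 libraries that stood apart, the 6 values ran from 4.18 for g01070 to 9.61 for g01120, of which the 2 Cabernet Sauvignon libraries left held 1 read. At colouring they parted. Model g01070 had 18.01, 42.8 and 40.7 FPKM in Danfeng-2, against 153, 152 and 151 FPKM in Cabernet Sauvignon, and was called lower in Danfeng-2 (-2.17 ± 0.24; adjusted p = 2.1e-07, edgeR; -1.83 without the 3 libraries). Model g00810 had 35.3, 255 and 265 FPKM in Danfeng-2, against 140, 140 and 143 FPKM in Cabernet Sauvignon, so that the ranges overlapped only through Danfeng-2 replicate 1 (0.40 ± 0.55; adjusted p = 0.54, edgeR; 0.93 without the 3 libraries). Model g01120 likewise had 14.3, 135 and 127 FPKM in Danfeng-2, against 88.1, 76.1 and 89.3 FPKM in Cabernet Sauvignon (0.12 ± 0.50; adjusted p = 0.86, edgeR; 0.66 without the 3 libraries). The calls of g00780, g00900 and g00950 as lower at colouring had log2 fold changes of -1.13, -1.09 and -1.04 with all libraries, and of -0.77, -0.68 and -0.59, under the 2-fold limit, without the 3.

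**Figure D4:**
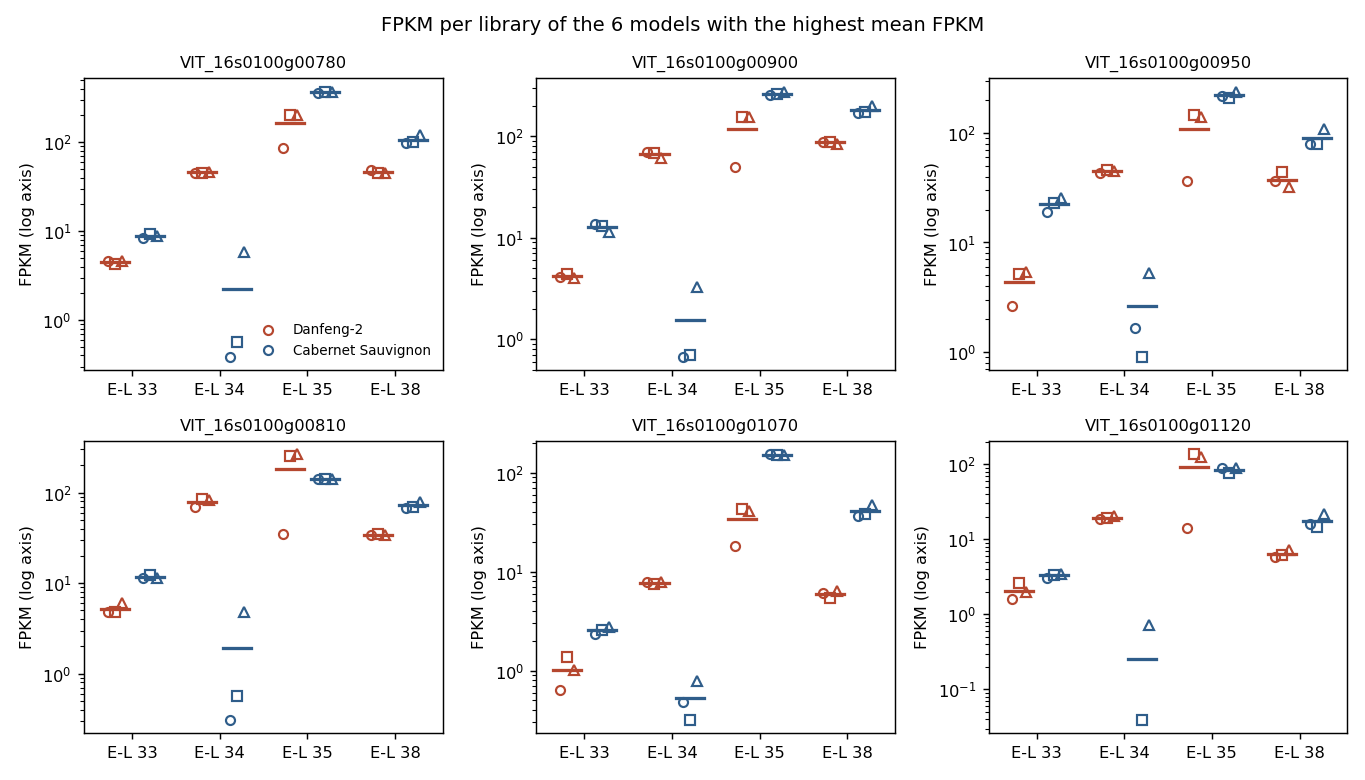
FPKM per library (log axis, a scale for each panel) of the 6 members with the highest mean FPKM, by stage, Danfeng-2 in red to the left and Cabernet Sauvignon in blue to the right; symbols are replicates 1, 2 and 3 and bars are means. At E-L 34 every Danfeng-2 library lies above every Cabernet Sauvignon library in all 6 panels, and at E-L 35 Danfeng-2 replicate 1 lies below the other two.

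At the green and harvest stages, g00900, g00950 and g01070 were called lower in Danfeng-2, whereas g00810, with log2 fold changes of -1.09 and -1.08, was called at neither stage with all libraries and at both (-1.06 each) without the 3. The largest of these was g01070 at harvest, with 6.10, 5.37 and 6.42 FPKM in Danfeng-2, against 36.2, 38.2 and 47.4 FPKM in Cabernet Sauvignon (-2.74 ± 0.26; adjusted p = 3.1e-08, edgeR). Among other members at the green stage, g01010 (-2.96 ± 0.51; adjusted p = 6.4e-05, edgeR) and g00990 (-2.85 ± 0.51; adjusted p = 9.6e-05, edgeR) were lower in Danfeng-2 by more. At harvest, g00850 was lower by a similar amount to g01190, with 1.81, 1.79 and 2.06 CPM in Danfeng-2, against 19.6, 24.6 and 21.8 CPM in Cabernet Sauvignon (-3.54 ± 0.68; adjusted p = 1.9e-04, edgeR).

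A group of 3 members had few reads in Danfeng-2 at every stage, yet rose at colouring in Cabernet Sauvignon. The grouping was made after their values were seen. Of the 370 reads of g00960 over all libraries, 312 were at Cabernet Sauvignon colouring, and most reads of g01130 were there too. Both thus passed the filter on low counts mainly through that group, so their folds against it describe the grouping, do not test it and are given without p. At colouring, g01160 had 1.16, 1.30 and 1.26 CPM in Danfeng-2, against 25.9, 24.5 and 25.8 CPM in Cabernet Sauvignon (-4.35; adjusted p = 2.6e-08, edgeR). Model g01130 had 0.128, 0.745 and 0.690 CPM in Danfeng-2, against 20.15, 22.03 and 19.93 CPM in Cabernet Sauvignon (-5.29 ± 0.50). Model g00960 had 0.193, 0.372 and 0.126 CPM in Danfeng-2, against 7.14, 5.93 and 7.17 CPM in Cabernet Sauvignon (-4.82 ± 0.41). In Danfeng-2 their highest group means were 1.32 CPM for g01160, at softening, 0.521 CPM for g01130, at colouring, and 0.267 CPM for g00960, at harvest. None of the 3 was at 0 in all Danfeng-2 libraries, and how far reads of Danfeng-2 copies aligned to these models was not tested.

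In Cabernet Sauvignon the 3 differed in how much was left at harvest. Model g00960 had 0 reads at harvest and 312 at colouring there, which places it at least 92.1-fold lower at harvest when the floor is 3 reads over the group. Against 10 reads at Danfeng-2 harvest, the same 0 places it at least 3.56-fold higher in Danfeng-2 at that stage. Model g01130 had 0.358, 0.297 and 0.298 CPM at harvest and the values above at colouring (-5.99 ± 0.54). Model g01160 had 3.57 ± 0.62 CPM at harvest.

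Model g01150, on the minus strand inside the stretch drawn for g01070, went the other way. It had 17.3, 101 and 97.9 CPM in Danfeng-2, against 16.26, 17.18 and 16.96 CPM in Cabernet Sauvignon at colouring, a log2 fold change of 2.10 ± 0.46 (adjusted p = 6.0e-04, edgeR) that was 2.61 without the 3 libraries. At softening it had 16.93, 16.13 and 14.98 CPM in Danfeng-2, against 0, 0 and 0.269 CPM in Cabernet Sauvignon, where the only reads came from the library that stood apart, so that the fitted value (7.36 ± 0.77; adjusted p = 1.8e-07, edgeR) rests on it. At the green and harvest stages its log2 fold changes were 1.36 (adjusted p = 0.12, edgeR) and 1.27 (adjusted p = 0.055, edgeR), and with the 3 libraries left out it was called higher in Danfeng-2 at all 4 stages.

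The first 5 models, g00700 to g00740, departed from the course of the rest; this division was made after their values were seen and is not tested. Over the 24 libraries, which share grapes and stages, the log2 level of each tested member from g00750 on correlated with the log2 sum of the other members at 0.54 to 0.98, and that of the first 5 at -0.44 to 0.37. The models from g00750 on make up most of that sum, so the split in correlation is partly built in. Model g00720 had 26.7, 25.7 and 15.7 CPM at softening and 9.01, 8.26 and 7.24 CPM at the green stage in Cabernet Sauvignon, and was the 1 member that rose at that step (1.47 ± 0.24; adjusted p = 5.5e-05, edgeR). Its neighbour g00730 stayed between 7.70 and 25.9 CPM in all 24 libraries, and was higher in Danfeng-2 at the green stage (1.05 ± 0.19; adjusted p = 1.3e-04, edgeR). Model g00710 had at most 1.51 CPM in any library.

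From the colouring to the harvest stage, the 1 member that rose was the same in both grapes, g00700, at the first end of the array; without the 3 libraries g00740 rose in both as well. It had 23.3, 28.5 and 26.1 CPM in Danfeng-2, against 4.30, 3.93 and 4.17 CPM in Cabernet Sauvignon at harvest, the groups lying far apart (2.65 ± 0.33; adjusted p = 1.5e-06, edgeR). In Danfeng-2 at colouring it had 0.385, 0.186 and 0.188 CPM, a log2 change of 6.64 ± 0.45 to harvest (adjusted p = 5.0e-10, edgeR), and its rise was larger than that in Cabernet Sauvignon, where the log2 change was 1.77 (adjusted p = 0.0011, edgeR; difference 4.88 ± 0.58; adjusted p = 1.9e-06, edgeR). Model g00740 had 20.01, 18.38 and 22.55 CPM in Danfeng-2, against 8.88, 9.06 and 8.27 CPM in Cabernet Sauvignon at harvest, which did not overlap, but its log2 fold change of 1.22 missed the threshold (adjusted p = 0.23, edgeR); it was called without the 3 libraries.

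Model g00740 depended more than any other named member on single libraries. At the green stage it had 0.483, 10.99 and 11.42 CPM in Danfeng-2, against 0.683, 0.506 and 0.398 CPM in Cabernet Sauvignon (3.85 ± 1.11; adjusted p = 0.0061, edgeR). At colouring it had 30.5, 2.61 and 2.82 CPM in Danfeng-2, against 1.56, 1.82 and 1.28 CPM in Cabernet Sauvignon (2.95 ± 0.97; adjusted p = 0.013, edgeR). In both stages the odd value was in the Danfeng-2 library that stood apart, and at colouring the log2 fold change was 0.81 without it (adjusted p = 0.44, edgeR). Without all 3 libraries that stood apart, g00740 stayed called at the green stage, with a log2 fold change of 4.37. At colouring its value was then 0.86, under the 2-fold limit. That refit dropped the odd Danfeng-2 value at both stages, so its p-values rest on a reduced spread and are not given.

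From g00750 on, the change of the array between stages was larger than the whole sum shows, since the first 5 models held 36.7 ± 5.91 CPM at Danfeng-2 green and 38.2 ± 7.15 CPM at Cabernet Sauvignon softening. In Cabernet Sauvignon, the models from g00750 on summed to 115.8, 117.7 and 119.7 CPM at the green stage, 6.35, 6.24 and 45.6 CPM at softening, 2649, 2608 and 2683 CPM at colouring, and 986, 1018 and 1228 CPM at harvest. In Danfeng-2, they summed to 39.2, 44.7 and 46.6 CPM at the green stage, 530, 543 and 540 CPM at softening, 547, 1862 and 1867 CPM at colouring, and 439, 438 and 425 CPM at harvest. The replicate 3 library of Cabernet Sauvignon softening thus held about as high a sum, 45.6 CPM, as the Danfeng-2 libraries at the green stage.

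As shares of the array's summed FPKM, the mix of members shifted with the grape as well as the stage. Shares depend on the division of reads between overlapping models, and are given as descriptions. At colouring, g00810 made up 13.4% in Danfeng-2 and 6.4% in Cabernet Sauvignon, g01150 4.3% and 0.60%, and g01070 3.0% and 6.9%. Without Danfeng-2 colouring replicate 1, the Danfeng-2 shares were 16.6% for g00810, 5.1% for g01150 and 2.7% for g01070. At harvest, g00900 made up 19.1% in each grape, whereas g00700 made up 8.8% in Danfeng-2 and 0.67% in Cabernet Sauvignon. At softening, g00720 made up 2.5% in Danfeng-2 and 42.0% in Cabernet Sauvignon, where 26 of the 33 members with reads had their lowest mean. The Cabernet Sauvignon share had an SD of 20.5% over the 3 libraries and was 53.8% without replicate 3.

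**Figure D5:**
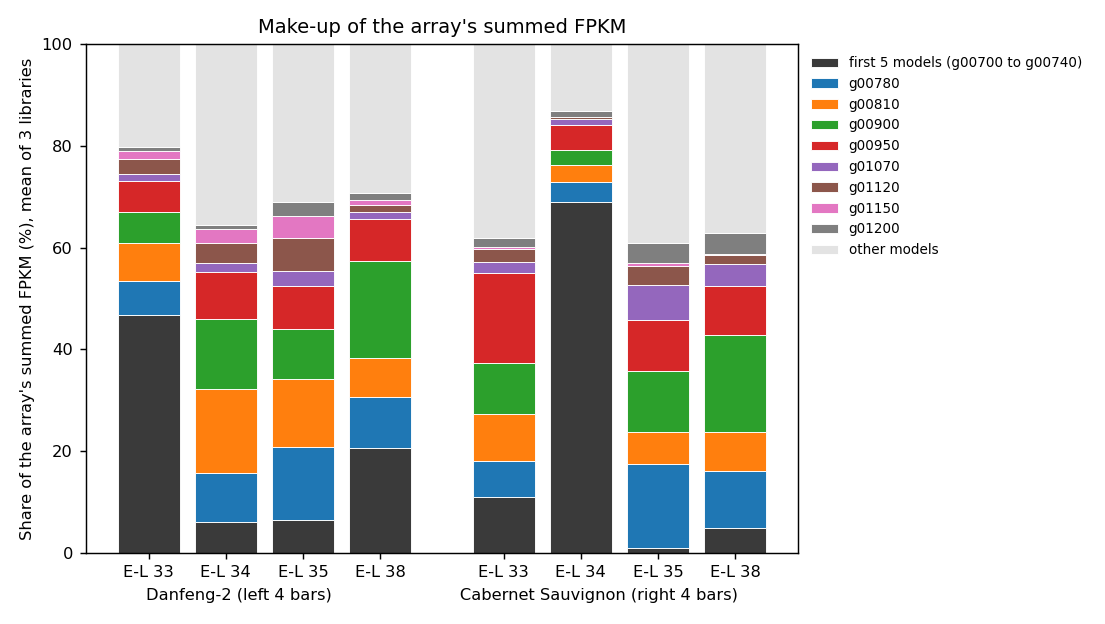
Share of the array's summed FPKM (%) held by the first 5 models together, by 8 named models and by all others, mean of 3 libraries, with the 4 Danfeng-2 groups at the left and the 4 Cabernet Sauvignon groups at the right. The dark bottom segment, the first 5 models, is largest at Danfeng-2 E-L 33 and at Cabernet Sauvignon E-L 34, where g00720 alone holds 42.0% (53.8% without replicate 3).

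At the other end of the array, g01200, the last member, followed the others. It had 5.34, 4.91 and 6.10 CPM in Danfeng-2, against 0.0875, 0.188 and 2.15 CPM in Cabernet Sauvignon at softening (2.74; adjusted p = 1.5e-04, edgeR; 5.22 without the 3 libraries), and 8.19, 9.52 and 7.08 CPM in Danfeng-2, against 46.5, 46.6 and 59.3 CPM in Cabernet Sauvignon at harvest (-2.62; adjusted p = 1.8e-05, edgeR). Beyond the ends, 17 of the 20 models that flank the array (10 on either side) were tested. At softening, 2 of the 17 were called higher in Danfeng-2, a share near the background of 12.8%, and their median log2 fold change was -0.12. Flanks called higher and lower numbered 4 and 0 at the green stage (background 13.5% and 14.6%, median 0.17). They numbered 4 and 1 at colouring (17.7% and 16.7%, median 0.05), and 2 and 1 at harvest (15.3% and 16.3%, median -0.27). From the green to the softening stage, the flanks' median log2 change was -0.07 in Danfeng-2 and 0.34 in Cabernet Sauvignon, where 2 were called higher (background 7.42%).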

How the data were processed

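Per the series' design text and the labels, total RNA of grape skin was sequenced on an Illumina HiSeq. Per the submitters' processing notes, TopHat2 was used; no source used here names the reference, the counting tool or its use of strand. The authors deposited, per the file headers, for each library and gene model a raw count, an FPKM value, a normalized value (the signal column) and the model's length and position. Counts were used for all tests and CPM, FPKM for levels compared between members, and the authors' signal only to check the counts. Of 746 member counts above 0, 598 (80.2%) equalled the signal divided by 1 factor per library within 0.02, and the others exceeded it by at most 1.03, so that part of the deposited counts may be rounded up from an estimate and the lowest are uncertain by up to about 1 read.

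Models with low counts were removed with filterByExpr (18375 of 27711 remained), library sizes were adjusted by TMM, and edgeR 4.0.16 (R 4.3.3) fitted 1 quasi-likelihood model with a mean for each of the 8 groups to all 24 libraries, each contrast adjusted by Benjamini-Hochberg over all tested models. The SE of a log2 fold change is its size divided by the square root of the F statistic. Calls needed a change of 2-fold or more with an adjusted p below 0.05. There were 13 comparisons, 4 between the grapes by stage, 6 steps between successive stages within a grape, and 3 differences between grapes in a step. Alternatives were RLE size factors, other filters, DESeq2 1.42.0, limma 3.58.1 with FPKM as log2(FPKM + 0.1) or log2(FPKM + 1), a replicate block, overlapping members summed into 13 loci, each library left out in turn, and all 3 libraries that stood apart left out. The fit was tested on simulated data.

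The members and lists were chosen with earlier results of these data known. The text names the 6 members with the highest mean FPKM, up to 2 members called in each direction in each comparison with the largest change and at least 5 CPM in the higher group, any member at 0 in 1 grape and at 1 CPM or more in a group of the other (there was none), and the first and last member; other names were chosen after their values were seen. None of the 27711 model numbers matched the RefSeq gene table (29591 genes), so lists of pathway and cell type genes by product name were not run, the skin label was not checked against markers, and no sequence is shown. Counting intervals and floors (3 reads) cover counting error only.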

Additional observations from a re-analysis of the deposited data

Results flagged for a closer look

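Of the 3 tests that set the change between stages in Danfeng-2 against that in Cabernet Sauvignon, the first called 27 members (27 positive, where 8.39% of all models were) and the second 28 (27 negative, where 10.6% of all models were), so the grapes differed in those steps for most tested members; the third called 9. For the step from green to softening the named differences on the log2 scale were 7.32 for VIT_16s0100g00750 and 6.97 for VIT_16s0100g00900. For the step from softening to colouring they were 1.46 for VIT_16s0100g00720, -8.11 for VIT_16s0100g01160 and -7.77 for VIT_16s0100g00960. For the step from colouring to harvest they were 9.97 for VIT_16s0100g00960, 4.88 for VIT_16s0100g00700, -3.12 for VIT_16s0100g01040 and -2.12 for VIT_16s0100g01190. The 9.97 of VIT_16s0100g00960 rests on 0 reads at Cabernet Sauvignon harvest and is neither an estimate of size nor a bound. Adjusted p-values by edgeR's quasi-likelihood test stand in the report for the first 2 steps, except for VIT_16s0100g00960, and for VIT_16s0100g00700. For VIT_16s0100g01040 and VIT_16s0100g01190 at the last step they were 6.8e-04 and 0.0073. A share of 9 in 32 at the last step is near the background of both directions together (12.5% and 12.6%), and became 16 when Danfeng-2 colouring replicate 1 was left out.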

How the results depend on the processing

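Apart from single libraries left out, 97 of 117 recomputed counts of members called stayed within 1.5 times the reported count with the same leading direction, 17 moved and 3 changed it; with 1 library left out, 307 of 312 stayed. Only values of named members that were called with all libraries were scored. Of these, 820 of 837 kept their direction and call and 17 lost the call. With 1 library left out, 2494 of 2544 kept them and 50 did not. None of the scored values changed direction. Values not called could do so: without the 3 libraries that stood apart, g00740 went from 1.10 to -1.32 from green to softening in Cabernet Sauvignon. Its difference between the grapes from softening to colouring went from 1.38 to -3.12. Summing overlapping members into 13 loci left fewer units to count. Loci called higher and lower in Danfeng-2 numbered 2 and 4 at green, 6 and 0 at softening, 1 and 3 at colouring, and 1 and 4 at harvest. Those that rose and fell numbered 6 and 0, 4 and 0, and 1 and 5 in the Danfeng-2 steps. In the Cabernet Sauvignon steps they numbered 1 and 5, 7 and 0, and 1 and 4. Differences between steps were positive and negative in 6 and 0, 1 and 6, and 2 and 3 loci. Shares over all tested models in the main fit are given above with each comparison. limma on log2(FPKM + 1) called 12 at the green stage, and limma on log2(FPKM + 0.1) called 6 from the softening to the colouring stage in Danfeng-2, where 24 were called without the 3 libraries that stood apart. The difference at the step from colouring to harvest was the unstable one, with more members positive than negative under DESeq2 (9), limma on log2(FPKM + 1) (11) and log2(FPKM + 0.1) (8), without Cabernet Sauvignon harvest replicate 3 (9), Danfeng-2 colouring replicate 2 (7) or Danfeng-2 harvest replicate 3 (7), and 19 called without the 3 libraries; the cause was not tested. Without the first 5 models, a choice made after seeing the data, the log2 ratio of the sum was -1.44 at the green stage and 4.79 at softening, which became 6.42 without Cabernet Sauvignon softening replicate 3.

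With each library left out in turn, members called ranged from 16 to 22 at the green stage, 25 to 28 at softening, 16 to 22 at colouring and 14 to 22 at harvest. They ranged from 26 to 26, 8 to 24 and 20 to 26 in the Danfeng-2 steps, 20 to 28, 28 to 29 and 14 to 20 in the Cabernet Sauvignon steps, and 27 to 28, 28 to 28 and 6 to 16 for the differences. The 24 and the 16 were reached without Danfeng-2 colouring replicate 1, and the 8 without Danfeng-2 softening replicate 1. The log2 ratio of the sum ranged from -0.81 to -0.67, 3.21 to 3.56, -1.08 to -0.48 and -1.21 to -1.05 over the 4 stages. Shared replicate numbers did not pair the libraries (2 of 84 same-number pairs correlated above 0.1, and 10 of 24 libraries correlated best with their own number); with the replicate block the counts were within 1.5 times, for example 26 at softening and 21 at colouring.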

Other observations

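Outside the array, the 5 models whose log2 CPM followed the log2 sum of the array most closely over the 24 libraries (which share grapes and stages, so that no p is given) were VIT_12s0059g01720 (r = 0.965), VIT_07s0141g00890 (r = 0.964), VIT_16s0039g01300 (r = 0.962), VIT_16s0039g01360 (r = 0.957) and VIT_16s0039g01320 (r = 0.954). By their numbers 3 of them lie near each other on chromosome 16, away from the array. VIT_16s0039g01300 averaged 4.57 ± 0.63 CPM in Danfeng-2, against 0.164 ± 0.21 CPM in Cabernet Sauvignon at softening, and 10.7 ± 4.86 CPM in Danfeng-2, against 22.4 ± 6.60 CPM in Cabernet Sauvignon at colouring (SD, n = 3 each), the same order of the grapes as the array's at each stage. The order was not the array's for VIT_12s0059g01720 at colouring, with 25.3 ± 14.8 CPM in Danfeng-2, against 22.8 ± 0.515 CPM in Cabernet Sauvignon, nor for VIT_07s0141g00890 at the green stage, with 0.449 ± 0.28 CPM in Danfeng-2, against 0.265 ± 0.17 CPM in Cabernet Sauvignon. VIT_07s0141g00890 averaged 23.9 ± 13.2 CPM in Danfeng-2, against 33.3 ± 2.20 CPM in Cabernet Sauvignon at colouring. The files and the RefSeq table pair none of the 5 with a name.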
